A study of Mus musculus with 15 samples.

Results

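Linker histones bind the DNA that enters and leaves each nucleosome and help to fold chromatin. The mRNAs of 7 mouse linker histone genes, H1f0, H1f1, H1f2, H1f3, H1f4, H1f5 and H1f10, were looked up by Ensembl gene identifier among 13501 genes of a table of overexpression libraries and 13669 genes of a table of hairpin libraries. The genes were chosen by name, and older symbols (Hist1h1a to Hist1h1e, H1fx) were taken as the same genes. H1f1, H1f2, H1f3, H1f4 and H1f5 were in both tables, so 5 of 7 genes are described. The identifiers of H1f0 and H1f10 in the name table used matched no row, and these genes were not analysed here. Only 88.1% and 87.3% of the identifiers in the gene tables had a symbol in that name table, so either gene could be listed under an identifier that was not matched.

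The cells were of the mouse mammary cancer line 6DT1. They grew in monolayer and were collected 24 h after they had been seeded at 70% confluence. Lentivirus was used to make 5 selected lines, each measured in 3 libraries from different passages, for 15 libraries in all. OE cells expressed a Smarcd1 cDNA with a C-terminal Myc tag from a pol2 promoter, EV cells carried the empty vector, and both were kept in blasticidin. KD4 and KD6 cells each carried 1 hairpin against Smarcd1, shScr cells carried a scrambled hairpin, and all of these were kept in puromycin. Smarcd1 encodes a subunit of the SWI/SNF chromatin remodelling complex, and the study asked what raising or lowering it did to the transcriptome. Each line is 1 selected population, so an effect of Smarcd1 and a property of that population cannot be told apart.

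Values were read counts scaled to the library total (CPM) made by the authors, and the read depth is unknown, so no counting interval could be given. Changes are differences of log2(CPM + 1) with SE from limma, with Benjamini-Hochberg adjusted p values for the whole table, while a gene passed at an adjusted p under 0.05. Smarcd1 rose in OE (log2 change 1.12, limma adjusted p = 0.00355) and fell by 0.69 in KD4 (limma adjusted p = 0.000873), while its change in KD6 was -0.09 (limma adjusted p = 0.701). A lower level of Smarcd1 mRNA was therefore not shown for the line labelled KD6. The study also probed Smarcd1 protein in its hairpin lines by western blot, and the values here cover mRNA only. EV library 1 stood apart in its table, with a first principal component score of -23.7 where the other 5 libraries had 1.07 to 11.3. The share of listed CPM from mitochondrially encoded genes was 5.71% to 6.71% for OE and EV and 4.47% to 5.64% for KD4, KD6 and shScr. Of 6 epithelial markers Krt8, Krt18 and Krt19 were listed and Epcam, Cdh1 and Cldn4 were not, and of the markers of other cell types only Cd68 (immune), Pdgfra (fibroblast) and, in the OE and EV table, Kdr (endothelial) were listed.

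H1f1 to H1f5 are replication-dependent genes of the large histone cluster on chromosome 13 and encode the somatic H1 proteins that a cell makes while it copies its DNA. Their mRNAs usually end without a poly(A) tail, in a stem-loop that is bound by the stem-loop binding protein Slbp, and are degraded when DNA synthesis stops. The methods of the study name mRNA libraries and do not say how the mRNA was selected. If it was selected by its poly(A) tail, the histone levels given here cover only the tailed part of these mRNAs, and this was not tested. H1f0 and H1f10 are replacement genes that are also transcribed outside S phase. The 4 germline linker histone genes looked up beside them (the testis and oocyte forms) were not listed in either table.

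The bases before the transcription start are printed because the promoters of these clustered genes can be compared letter by letter. Each sequence is the 130 bases before the RefSeq start in GRCm38.p6, 5′ to 3′ on the strand of the gene, with capitals for the letters AAACACA (the H1 box, an element of H1 promoters), CCAAT and TATAAA on either strand.
H1f1: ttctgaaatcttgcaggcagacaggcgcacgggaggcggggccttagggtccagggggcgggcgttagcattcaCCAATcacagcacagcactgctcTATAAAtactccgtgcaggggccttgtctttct
H1f2: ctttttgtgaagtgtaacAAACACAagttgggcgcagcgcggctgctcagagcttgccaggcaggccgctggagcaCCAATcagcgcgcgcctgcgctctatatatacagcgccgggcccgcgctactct
H1f3: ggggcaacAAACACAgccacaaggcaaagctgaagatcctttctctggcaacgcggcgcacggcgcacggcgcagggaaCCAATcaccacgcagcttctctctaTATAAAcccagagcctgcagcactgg
H1f4: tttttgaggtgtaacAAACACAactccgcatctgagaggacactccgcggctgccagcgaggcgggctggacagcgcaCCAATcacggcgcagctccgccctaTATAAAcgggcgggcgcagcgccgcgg
H1f5: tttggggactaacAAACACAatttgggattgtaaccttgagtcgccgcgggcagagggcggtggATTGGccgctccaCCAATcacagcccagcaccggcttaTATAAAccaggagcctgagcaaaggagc

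The printed bases lie at chr13:23763538-23763667 (plus strand, H1f1), chr13:23738677-23738806 (plus strand, H1f2), chr13:23554902-23555031 (plus strand, H1f3), chr13:23622559-23622688 (minus strand, H1f4) and chr13:21780626-21780755 (minus strand, H1f5). All 7 linker histone genes matched a RefSeq promoter, and the letters were searched on both strands of the 250 bases before each start. The H1 box letters were found in 4 of 7 (H1f2, H1f3, H1f4 and H1f5), beginning 112, 122, 115 and 117 bases before the start, and in 6.25% of 32851 mouse promoters over 250 bases. CCAAT was found in 5 of 7, at 56, 54, 51, 52 and 53 bases before the start of H1f1, H1f2, H1f3, H1f4 and H1f5, against 33.8% of promoters, and H1f5 held it at a further pair of places. TATAAA was found in 4 of 7 (all of these but H1f2), against 12.4% of promoters. H1f1 thus shared CCAAT and TATAAA with H1f3, H1f4 and H1f5 and held no H1 box letters in this window. A match of letters is a description of the sequence, and binding was not measured.

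The stem-loop of the mRNA is shown because it marks the 3′ end at which these transcripts are usually cleaved. The windows hold 28 bases of the transcripts that the tables name (GENCODE M1 models on NCBIM37), with T for U and the 16 bases of the stem-loop in capitals.
H1f1: cccaacGGCTCTTTTCAGAGCCaccaac
H1f2: ccaaaaGGCTCTTTTCAGAGCCaccact
H1f3: tcaaacGGCTCTTTTCAGAGCCacccac
H1f4: cccaaaGGCTCTTTTCAGAGCCacccac

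The 4 stem-loops were identical and differed only in the flanking bases. The same 16 letters were in transcripts of 30 of 22754 protein-coding genes, 28 of them among the 67 histone cluster genes. The model of H1f5 stops at the end of its coding sequence, so its stem-loop could not be placed. All 5 models are single exons on chromosome 13 (NCBIM37): H1f5 at 21871752 to 21872494 on the minus strand, H1f3 at 23646901 to 23650721 on the plus strand, H1f4 at 23713624 to 23714371 on the minus strand, H1f2 at 23830676 to 23832235 on the plus strand and H1f1 at 23855537 to 23856283 on the plus strand. The models of H1f1 and H1f4 end 7 and 27 bases after the stem-loop, while those of H1f2 and H1f3 run on for 839 and 3050 bases. Each gene had 1 transcript in the transcript table, so reads that end at the stem-loop and reads past it were not separated. The files hold fractional reads, so reads shared between these related genes may have been divided, and this was not tested.

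**Figure D1:**
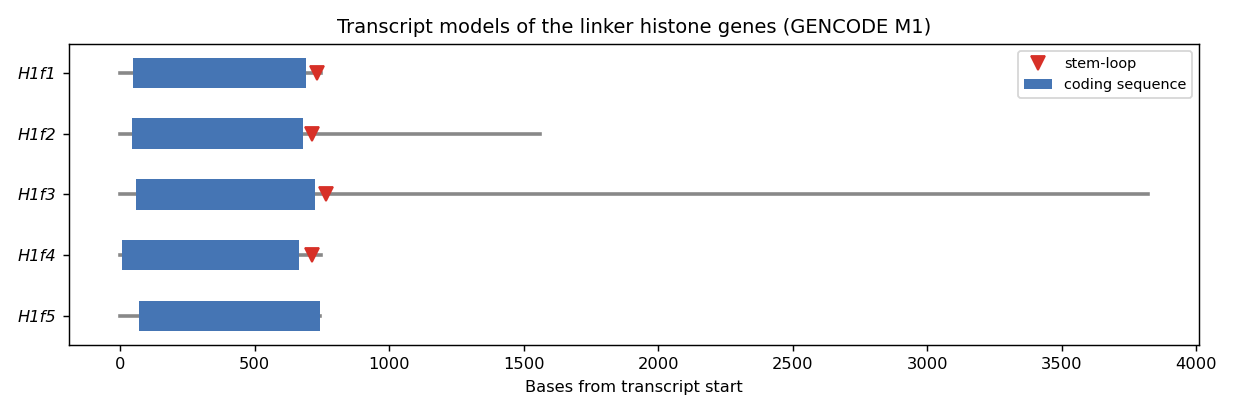
Transcript models of the 5 linker histone genes, drawn to scale in bases from the transcript start (x axis). Bars are coding sequence, grey lines the rest of the exon and triangles the stem-loop; the models of H1f2 and H1f3 extend 839 and 3050 bases past it, and that of H1f5 has none.

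No linker histone gene passed the test with Smarcd1 overexpression. Under limma 0 of 5 passed in OE against EV, and all 5 estimates were negative, between -0.22 (H1f1) and -0.00 (H1f2), with a median of -0.09 against 0.01 over all genes. Over all genes tested 0.00741% passed, which was 1 gene, Smarcd1 itself, and no linker histone gene was lower in OE at an unadjusted p under 0.05, against 5.27% of all genes, and none was higher. The groups overlapped for all 5, while 20.0% of genes in the table had groups that did not overlap.

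H1f1 had 8.24, 8.60 and 9.26 CPM in OE libraries 1, 2 and 3, against 13.04, 8.89 and 9.34 CPM in the EV libraries. The EV libraries held the highest value, in the library that stood apart, and the other EV libraries were close to OE. The change was -0.22 ± 0.13 (SE, limma adjusted p = 0.528) and was -0.06 without EV library 1 (limma adjusted p = 0.851). H1f5 had 51.4, 63.5 and 57.1 CPM in OE, against 68.6, 68.0 and 58.1 CPM in EV. Its libraries overlapped through EV library 3, and the change was -0.18 ± 0.09 (SE, limma adjusted p = 0.453).

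H1f2, H1f3 and H1f4, which encode main somatic H1 proteins, lay within the spread of their libraries. H1f2 had 253, 269 and 216 CPM in OE, against 215, 278 and 248 CPM in EV. H1f3 had 183, 210 and 172 CPM in OE, against 188, 210 and 178 CPM in EV. H1f4 had 220, 258 and 220 CPM in OE, against 258, 257 and 226 CPM in EV. Their changes were -0.00 ± 0.11, -0.03 ± 0.08 and -0.09 ± 0.08 (SE, limma adjusted p = 0.990, 0.905 and 0.672), with intervals that ran at most from -0.27 to 0.24. An exact permutation test of each gene alone gave p values of 0.2 to 1 (two-sided), where 3 libraries against 3 allow no p below 0.1.

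With both hairpin lines taken as 1 group of 6 (KD) against shScr, the linker histone genes all had higher means but none passed. All 5 changes were positive, between 0.10 (H1f3) and 0.67 (H1f1), with a median of 0.22 against -0.00 over all genes. Under limma 0 of 5 passed, against 2.66% of genes in the table, and H1f1 and H1f5 had an unadjusted p under 0.05, against 17.3% of genes. None had groups that did not overlap, against 10.8% of genes.

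H1f1 ranged from 5.84 to 11.4 CPM in KD (median 8.89), against 3.80, 5.37 and 6.28 CPM in shScr. Only the lowest KD library, from KD6, fell inside the range of shScr, and the mean of H1f1 was 8.89 ± 2.43 CPM in KD (SD, n = 6) and 5.15 ± 1.26 CPM in shScr (SD, n = 3). The change was 0.67 ± 0.21 (SE, limma adjusted p = 0.120), and an exact permutation test of H1f1 alone gave p = 0.0476 (two-sided, smallest possible 0.0238). The call depended on how the hairpins were pooled. Taking the mean of KD4 and KD6 in a fit of 3 groups, where the gap between the hairpins does not enter the spread, gave the same change with limma adjusted p = 0.0126. In the transcript table its transcript changed by 0.67 ± 0.14 (SE, limma adjusted p = 0.0262), where 2.45% of transcripts passed. That call was lost in 5 of 15 fits that left out 1 library (limma adjusted p of 0.0157 to 0.130), those without KD4 library 2, KD6 library 1 or 2 or shScr library 1 or 2. Without shScr library 1, the lowest of all, the change in the gene table was 0.50 (limma adjusted p = 0.406).

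H1f5 ranged from 55.4 to 73.8 CPM in KD (median 65.2), against 49.9, 51.6 and 63.0 CPM in shScr. In 3 of 6 KD libraries it was above every shScr library, with a change of 0.25 ± 0.10 (SE, limma adjusted p = 0.230). H1f4 ranged from 250 to 316 CPM in KD (median 287), against 217, 236 and 281 CPM in shScr. H1f2 ranged from 264 to 346 CPM in KD (median 287), against 229, 244 and 300.2 CPM in shScr. H1f3 ranged from 189 to 238 CPM in KD (median 214), against 179, 192 and 229 CPM in shScr. For these 3 genes the highest shScr library, number 3, lay inside the KD range, and limma adjusted p values were 0.290, 0.343 and 0.616.

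**Figure D2:**
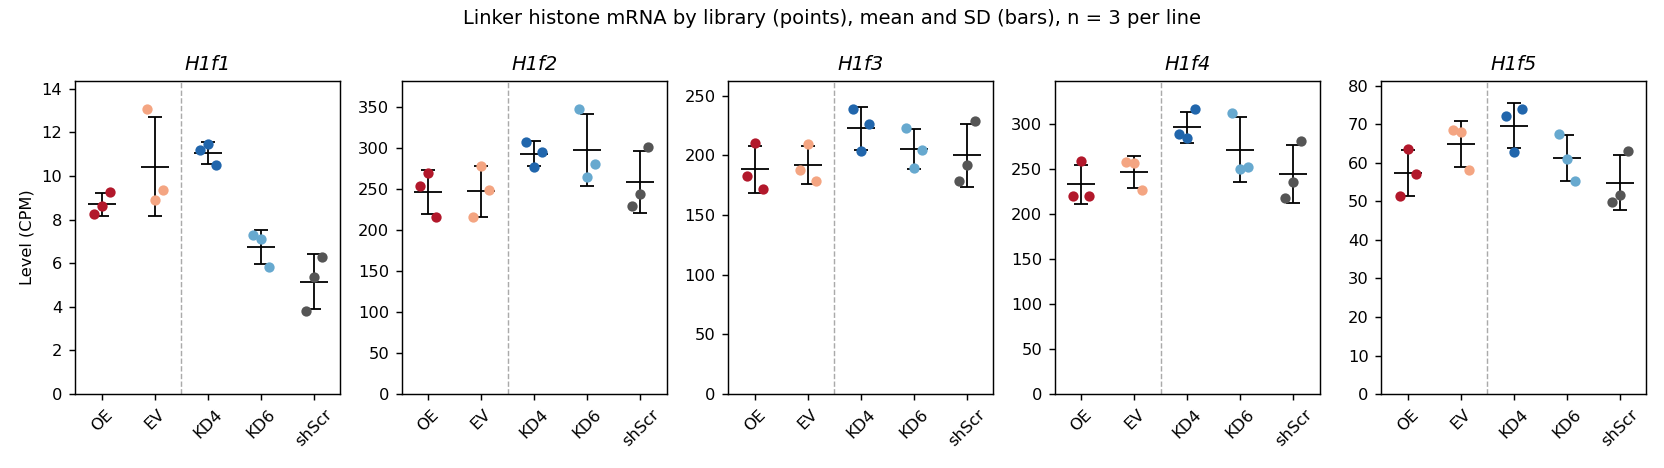
Level of each linker histone gene in CPM (y axis, starting at 0) in every library by line (x axis), as points, with the mean and SD of 3 libraries as bars; the dashed line separates the 2 gene tables. H1f1 at 10.5 to 11.4 CPM in KD4 lies above every KD6 and shScr library, while the other genes overlap between most lines.

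In KD4, the line in which Smarcd1 mRNA fell, H1f1 rose. Against shScr 1 of 5 linker histone genes passed, where 9.58% of genes did, and H1f1 was that gene. All 5 changes were positive, with a median of 0.28 against 0.00 over all genes. H1f1, H1f4 and H1f5 had an unadjusted p under 0.05, against 24.7% of genes, and H1f1 and H1f4 had groups that did not overlap, against 29.5% of genes.

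H1f1 had 11.2, 11.4 and 10.5 CPM in KD4, against 3.80, 5.37 and 6.28 CPM in shScr. Every KD4 library was above every shScr library, and the mean of 11.04 ± 0.492 CPM in KD4 (SD, n = 3) was 2.15 times the mean of 5.15 ± 1.26 CPM in shScr (SD, n = 3). H1f1 rose by 0.99 ± 0.15 on the log2 scale (SE, 95% interval 0.67 to 1.31, limma adjusted p = 0.00224), the rank 200 of 13669 genes by p. The call was kept in each of 9 fits that left out 1 library, with changes of 0.82 to 1.12 and limma adjusted p of 0.00289 to 0.0137.

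H1f5 had 72.1, 62.9 and 73.8 CPM in KD4, against 49.9, 51.6 and 63.0 CPM in shScr. KD4 library 2 lay just below the highest shScr library, so the groups overlapped, and the change was 0.34 ± 0.11 (SE, limma adjusted p = 0.0700). Without shScr library 3 it was 0.45 (limma adjusted p = 0.0337), past the threshold. H1f4 had 289, 284 and 316 CPM in KD4, against 217, 236 and 281 CPM in shScr. All KD4 libraries were above all shScr libraries, by a narrow margin at shScr library 3, and the change was 0.28 ± 0.11 (SE, limma adjusted p = 0.143).

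H1f2 had 307, 276 and 294 CPM in KD4, against 229, 244 and 300.2 CPM in shScr, and H1f3 had 238, 203 and 226 CPM in KD4, against 179, 192 and 229 CPM in shScr. For both genes shScr library 3 reached into the KD4 range. Their changes were 0.19 ± 0.12 and 0.16 ± 0.10 (SE, limma adjusted p = 0.361 and 0.374).

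In KD6, where the change of Smarcd1 mRNA did not pass, no linker histone gene passed either. Against shScr 0 of 5 linker histone genes passed under limma, where 2.91% of genes did. All 5 changes were positive, between 0.04 (H1f3) and 0.35 (H1f1), with a median of 0.16 against 0.00 over all genes. H1f1 alone had an unadjusted p under 0.05, against 15.3% of genes, and no gene of the 5 had groups that did not overlap, against 22.2% of genes. KD4 and KD6 share the shScr libraries, so their changes are not independent of each other.

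H1f1 had 7.29, 7.10 and 5.84 CPM in KD6, against 3.80, 5.37 and 6.28 CPM in shScr. The third KD6 library lay inside the shScr range, and the change was 0.35 ± 0.15 (SE, limma adjusted p = 0.282). H1f2 had 346, 264 and 280 CPM in KD6, against 229, 244 and 300.2 CPM in shScr. Its change of 0.20 ± 0.12 (SE, limma adjusted p = 0.471) was close in size to that in KD4, with KD6 library 1 the highest of all 9.

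H1f3 had 223, 189 and 205 CPM in KD6, against 179, 192 and 229 CPM in shScr. H1f4 had 313, 250.3 and 252 CPM in KD6, against 217, 236 and 281 CPM in shScr. H1f5 had 67.4, 61.05 and 55.4 CPM in KD6, against 49.9, 51.6 and 63.0 CPM in shScr. The ranges overlapped in all 3, with changes of 0.04 ± 0.10, 0.15 ± 0.11 and 0.16 ± 0.11 (SE, limma adjusted p = 0.908, 0.592 and 0.536).

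The hairpin lines were then set against each other, and H1f1 was lower in KD6 than in KD4. Of the 5 genes 1 passed, where 4.91% of genes did, and the same gene was the only 1 with an unadjusted p under 0.05, against 17.4% of genes. H1f1 was also the only 1 of 5 whose groups did not overlap, against 21.6% of genes. H1f1 averaged 6.74 ± 0.786 CPM in KD6 and 11.04 ± 0.492 CPM in KD4 (SD, n = 3 each). It fell by 0.64 ± 0.15 in KD6 (SE, 95% interval -0.96 to -0.32, limma adjusted p = 0.0305). The call was near the threshold. It was lost when any KD4 library was left out (limma adjusted p = 0.0774, 0.103 and 0.0531 without libraries 1, 2 and 3) or any KD6 library (limma adjusted p = 0.0522, 0.0802 and 0.108), with changes between -0.69 and -0.55. H1f2 differed by 0.01 ± 0.12 (SE, 95% interval -0.25 to 0.27), and H1f3, H1f4 and H1f5 by -0.11, -0.13 and -0.18 (limma adjusted p of 0.427 to 0.652).

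**Figure D3:**
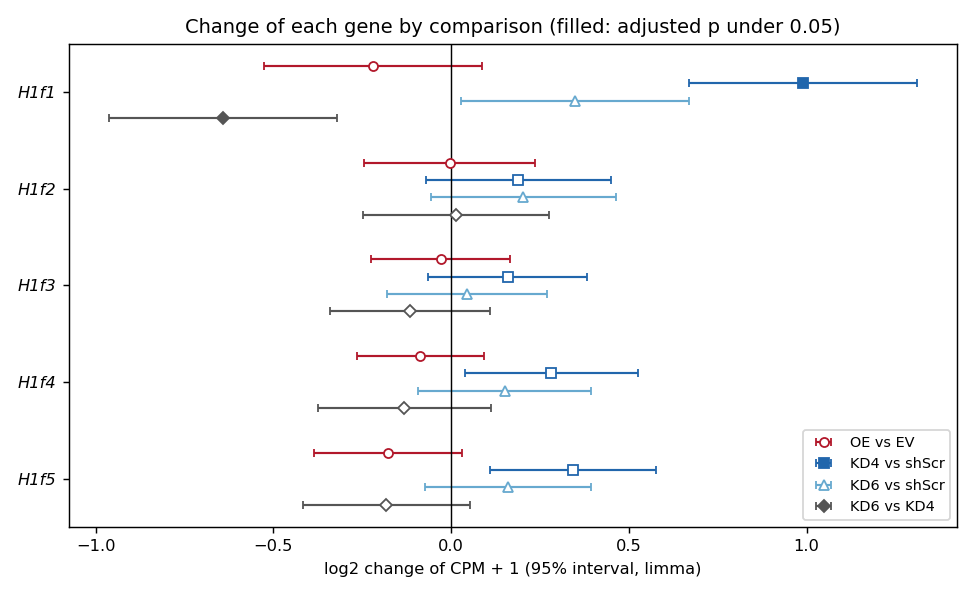
Log2 change of each linker histone gene (rows) in OE against EV, KD4 against shScr, KD6 against shScr and KD6 against KD4, with 95% intervals from limma (x axis, log2 scale); filled symbols have an adjusted p under 0.05. H1f1 lies at 0.99 in KD4 against shScr and at -0.64 in KD6 against KD4, and these are the only filled symbols.

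Over the 5 lines the mean level of H1f1 was 11.04 CPM in KD4, 10.4 in EV, 8.70 in OE, 6.74 in KD6 and 5.15 in shScr. KD4 and EV overlapped, as did EV and OE, and KD6 and shScr, while OE and KD6 did not. The EV and OE values come from another table than the hairpin lines, and their level against those lines goes with the vector and the antibiotic, which cannot be told apart from it. The control lines themselves differed, with EV at 8.89 to 13.04 CPM and shScr at 3.80 to 6.28 CPM. The H1f1 level of KD4 was above that of its own control and inside the range of the EV line. It lay inside that range only through EV library 1 (13.04 CPM), the library that stood apart. The other EV libraries, at 8.89 and 9.34 CPM, were below every KD4 library. The means of the other genes spanned narrower ranges. The mean of H1f2 lay between 246 CPM in OE and 297 CPM in KD6, that of H1f3 between 188 CPM in OE and 223 CPM in KD4, that of H1f4 between 233 CPM in OE and 296 CPM in KD4, and that of H1f5 between 54.8 CPM in shScr and 69.6 CPM in KD4.

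The response to the 2 manipulations was compared in the transcript table, which holds all lines on 1 scale. The OE effect minus the KD effect was negative for all 5 genes. It was -0.89 ± 0.21 for H1f1 (SE, unadjusted p = 0.00111, limma adjusted p = 0.116) and -0.43 ± 0.15 for H1f5 (SE, limma adjusted p = 0.229). H1f4, H1f2 and H1f3 had differences of -0.30, -0.20 and -0.13 (limma adjusted p of 0.347 to 0.672). None of the 5 passed, against 0.238% of transcripts, and H1f1 and H1f5 had an unadjusted p under 0.05, against 14.9% of transcripts. A different response to raising and to lowering Smarcd1 was thus not shown for any linker histone gene.

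From library to library H1f1 was closer to H1f5 than to H1f2, H1f3 or H1f4. Over the 15 libraries the Pearson correlation of log2 levels was 0.03 between H1f1 and H1f2, 0.19 with H1f3, 0.38 with H1f4 and 0.69 with H1f5. Among H1f2, H1f3, H1f4 and H1f5 it lay between 0.52 and 0.88. These values describe 15 libraries of 5 lines that share tables and depth scaling. For every 1000 CPM of H1f2 to H1f5 together there were 12.6 ± 1.18 CPM of H1f1 in KD4, 8.11 ± 1.02 in KD6 and 6.74 ± 0.975 in shScr (SD, n = 3 each), and 12.1 ± 1.64 in OE and 13.99 ± 3.54 in EV (SD, n = 3 each). The summed level of those 4 genes was 881 CPM in KD4, 835 in KD6 and 757 in shScr, and 725 in OE and 751 in EV.

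The 4 libraries with the highest summed H1f2 to H1f5 were also the 4 highest in core histone mRNAs. In KD6 library 1 and KD4 libraries 1 and 3 the median deviation of 46 core histone genes from their mean over all libraries was 0.36, 0.38 and 0.31 on the log2 scale, and in shScr library 3 it was 0.15. In EV library 1 it was -0.52, the lowest of all, and H1f2 in that library was at -0.30 while H1f1 was at 0.63, its highest. In shScr library 1, where H1f1 was at -0.92, the core histone median was -0.15. The part of the library in these deviations was not tested.

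**Figure D4:**
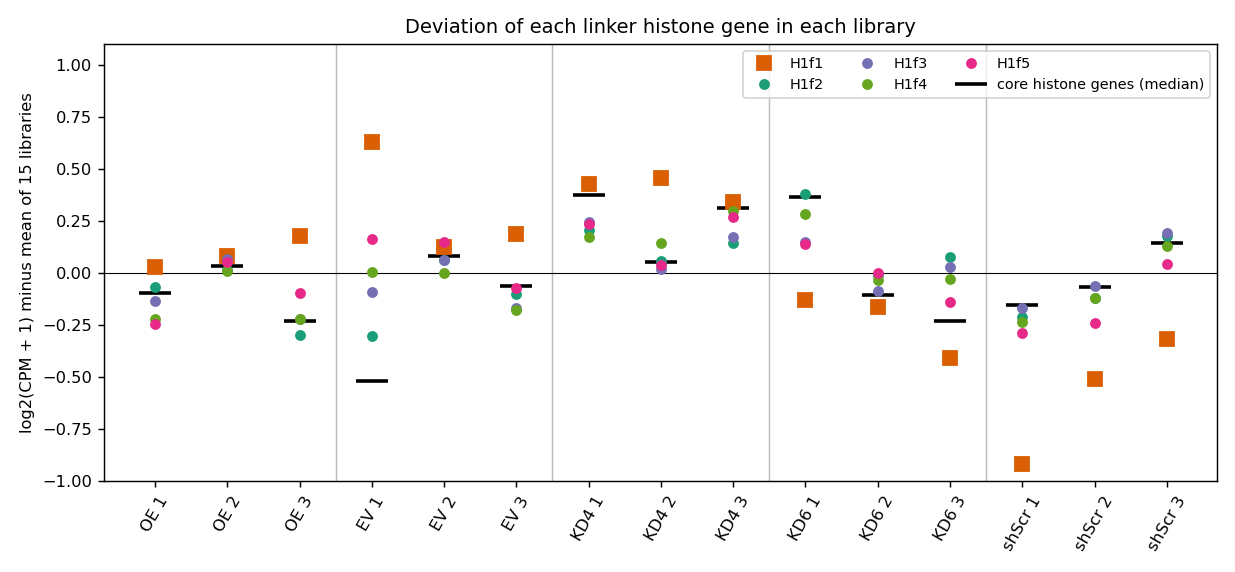
Deviation of each linker histone gene from its mean over 15 libraries, in log2(CPM + 1) (y axis), for each library (x axis), with the median of 46 core histone genes as black bars. H1f1 (squares) is at 0.63 in EV library 1 where the core histone median is -0.52, and at -0.92 in shScr library 1 where it is -0.15.

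The genes whose levels were most like those of each member, among 8700 genes with a symbol and at least 5 CPM, differed in kind between H1f1 and the rest. For H1f1 they were Ethe1 (Pearson correlation 0.95), a mitochondrial sulfur dioxygenase, Fah (0.94), the last enzyme of tyrosine breakdown, and Siva1 (0.92), an apoptosis-related protein. Ethe1 averaged 26.4 CPM in KD4, 22.6 in KD6 and 19.8 in shScr, against 23.6 in OE and 25.9 in EV. Fah averaged 16.4 CPM in KD4 and 12.7 in both KD6 and shScr, and Siva1 20.1, 15.6 and 14.5 in KD4, KD6 and shScr. These genes were picked by their correlation with H1f1 over the same libraries, so a like order of lines is no separate result. For H1f2 they were the H4 gene Hist1h4i (0.94), the dipeptidase Pepd (0.94) and Hist1h4k (0.94). For H1f3 they were Hist1h4f (0.89), H1f4 (0.88) and Pepd (0.88), and for H1f4 Hist1h4d (0.93), Hist1h4f (0.90) and the Polycomb protein gene Ring1 (0.90). For H1f5 they were Hist1h4d (0.91), Hist1h4c (0.90) and Arhgap22 (0.89). Histone H4 genes thus stood among the nearest of H1f2, H1f3, H1f4 and H1f5 and not of H1f1, and these values have no test.

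The core histone genes, which share the replication-dependent control of H1f1 to H1f5, gave 0 calls in OE, KD, KD4 or KD6 under limma among 46 (OE) and 45 (hairpin lines) measured of 63 listed. At an unadjusted p under 0.05, 4 were lower in OE and 0 higher, where 5.27% of all genes were lower at that level. In the hairpin lines 1 was higher in KD and 9 in KD4, 0 were lower, and 0 reached that level in KD6. Of all genes, 17.3%, 24.7% and 15.3% reached it in KD, KD4 and KD6 in either direction. The median change of the core histone genes was 0.06 in OE, 0.14 in KD, 0.24 in KD4 and 0.03 in KD6. In KD4 43 of 45 were higher than in shScr, where 50.15% of all genes were. Hist1h4i had 57.4 ± 7.17 CPM in KD (SD, n = 6), against 48.1 ± 5.80 CPM in shScr (SD, n = 3), and Hist1h4a had 73.3 ± 14.5 CPM in KD against 56.3 ± 13.8 CPM in shScr. Hist3h2a had 12.2 ± 2.80 CPM in KD against 9.19 ± 1.17 CPM in shScr, Hist1h3a had 21.3 ± 4.73 CPM in KD against 16.2 ± 1.51 CPM in shScr, and none of these passed (limma adjusted p of 0.272 to 0.330). Many core histone genes are near-identical copies, so the division of reads among them is uncertain. Between the hairpin lines 44 of 45 core histone genes were lower in KD6 than in KD4, with a median of -0.22. The other gene was higher, where 49.2% of all genes were higher in KD6. Under limma 0 passed, against 4.91% of all genes, and 2 had an unadjusted p under 0.05, against 17.4%. The core histone genes were read in the same few libraries, so the counts by sign are not counts of separate results. The median deviation of 46 core histone genes was 0.38, 0.05 and 0.31 in KD4 libraries 1, 2 and 3. It was 0.36, -0.11 and -0.23 in those of KD6, so KD6 library 1 lay between KD4 libraries 1 and 3. Of 9 replacement core histone genes, 0 rose and 1 fell in KD4, where 9.58% of all genes passed. The gene that fell was H2aj, with 29.1 ± 2.34 CPM in KD4 against 40.2 ± 0.803 CPM in shScr (SD, n = 3 each, limma adjusted p = 0.0284). At an unadjusted p under 0.05, 5 of the 9 were higher in KD4 and 1 was lower, against 24.7% of all genes in either direction. The median change of the 9 genes in KD4 was 0.20.

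Of 25 genes for the synthesis and processing of histone mRNA, 0 passed in OE, KD or KD6, and in KD4 1 rose and 2 fell (limma), a share near the 9.58% of all genes that passed there. At an unadjusted p under 0.05, 1 was higher and 2 were lower in OE, where 5.27% of all genes were lower at that level. There were 2 higher and 2 lower in KD, 4 higher and 4 lower in KD4, and 0 in KD6. Of all genes, 17.3%, 24.7% and 15.3% reached that level in KD, KD4 and KD6 in either direction. The gene that rose was Slbp, the stem-loop binding protein, with 63.4 ± 2.09 CPM in KD4, against 52.6 ± 3.58 CPM in shScr (SD, n = 3 each, log2 change 0.27, limma adjusted p = 0.0341). The genes that fell were Ncbp1, a cap-binding protein, with 79.6 ± 3.09 CPM in KD4 against 99.0 ± 2.80 CPM in shScr (limma adjusted p = 0.00925), and Tut7, a uridylyltransferase that takes part in histone mRNA decay, with 112 ± 3.21 CPM in KD4 against 137 ± 7.37 CPM in shScr (limma adjusted p = 0.0291). Of 14 genes for linker histone chaperones and for the HMG proteins that compete with H1 for nucleosomes, 0 passed in OE, KD, KD4 or KD6 under limma. At an unadjusted p under 0.05 there were 6, 1, 2 and 0. In OE 5 of the 14 were lower at that level, against 5.27% of all genes, and 1 was higher. By sign alone 11 of the 14 were lower in OE and 3 higher. Those in KD and KD4 were all higher, where 17.3% and 24.7% of all genes reached that level in either direction. Hmgn3 was among the genes lower in OE (log2 change -0.13, limma adjusted p = 0.361). Hmgn3 had 34.5 ± 2.89 CPM in KD (SD, n = 6), against 29.6 ± 3.59 CPM in shScr (SD, n = 3, limma adjusted p = 0.255).

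Replication and cell cycle genes were read beside the histones, because histone mRNA depends on S phase. Of 19 proliferation genes 3 rose in KD4, the replicative helicase genes Mcm4 and Mcm5 and the cyclin Ccna2, and 0 fell, where 9.58% of all genes passed in either direction. At an unadjusted p under 0.05, 7 were higher in KD4 and 1 was lower, against 24.7% of all genes in either direction. The changes of the 19 genes ran from -0.29 to 0.30. Ccna2 had 69.3 ± 6.04 CPM in KD4, against 56.0 ± 2.79 CPM in shScr (SD, n = 3 each, log2 change 0.30, limma adjusted p = 0.0405). Of 10 measured genes of cell cycle exit 3 rose in KD4, the kinase inhibitor Cdkn2c, the stress-induced gene Gadd45a and the retinoblastoma relative Rbl1. Of the 10 genes 0 fell, where 9.58% of all genes passed in either direction. The list did not move as 1, with 7 genes higher in KD4 and 3 lower and changes from -0.34 to 0.69. At an unadjusted p under 0.05, 4 were higher and 0 lower, against 24.7% of all genes in either direction. Gadd45a had 12.6 ± 1.30 CPM in KD4, against 7.41 ± 0.795 CPM in shScr (SD, n = 3 each, log2 change 0.69, limma adjusted p = 0.00552). In OE, KD and KD6 none of either list passed under limma, with 0, 3 and 1 proliferation genes and 1, 3 and 3 exit genes at an unadjusted p under 0.05. Their part in the H1f1 change was not tested. Of the 3 listed epithelial markers Krt19 fell in KD4 (log2 change -0.76, limma adjusted p = 0.00106), while Krt8 and Krt18 had higher means in KD4 and did not pass (log2 change 0.15 and 0.31, limma adjusted p = 0.489 and 0.0872). Pdgfra, the only listed fibroblast marker, rose, with 7.51 ± 0.345 CPM of Pdgfra in KD4 against 3.14 ± 0.535 CPM in shScr (SD, n = 3 each, limma adjusted p = 0.000458).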

How the data were processed

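Messenger RNA libraries of 15 samples were sequenced on a HiSeq2500 from RNA with an integrity number above 7. The labels name STAR 2.7.8a and build mm39, whereas the methods of the study name Trimmomatic, Tophat, build mm9 and Partek Genomics Suite, so it is open which of them made the values. The deposited values were CPM made by the authors from fractional reads, in 2 gene tables (13501 and 13669 genes) and 1 transcript table (30220 transcripts). Every listed feature had a geometric mean of about 1 CPM or more, a filter applied before deposition. Columns with the authors' own fold changes and p values were not used, nor were 15 per-sample columns of the transcript table whose names do not match the labels. Library sums of listed CPM lay between 894250 and 923092 in the gene tables and between 854736 and 902115 in the transcript table.

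Tests were run on log2(CPM + 1) with limma 3.58.1 (eBayes with trend) in R 4.3.3, in each gene table on its own. Fold changes on this scale understate those of low genes such as H1f1. KD4, KD6 and shScr were fitted as 3 groups with a shared spread, and the transcript table as 5 groups. Single genes were tested with exact permutation tests (scipy 1.17.1). Fits were checked on simulated data. The p values measure the spread between passages of a line. In the pooled fit and the permutation test of KD against shScr, the gap between KD4 and KD6 also enters that spread. Alternatives were a pseudocount of 0.1 CPM, a minimum mean of 5 CPM, quantile normalization, median-of-ratios scaling, a replicate block, the mean of the hairpins and leaving out each library. The members and lists were chosen with earlier results of these data known. All listed members were named. Of each list, up to 4 genes were to be named, those past the threshold in KD or OE, otherwise those with the smallest p in KD; genes named for KD4 alone (H2aj, Slbp, Tut7, Ncbp1, Mcm4, Mcm5, Gadd45a, Rbl1) were chosen after their values were seen where that rule did not name them. Plots were made in Python 3.11.15 (matplotlib 3.10.9).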

Additional observations from a re-analysis of the deposited data

Results flagged for a closer look

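The change of H1f1 differed between the hairpin lines. Against the same shScr libraries it was 0.35 in KD6 and 0.99 in KD4 (log2), and the difference of KD6 from KD4, tested directly in the fit of 3 groups, was -0.64 ± 0.15 (SE, limma adjusted p = 0.0305, lower in 3 of 3 KD6 libraries than in any KD4 library). The Smarcd1 mRNA differed between these lines as well, at a log2 change of -0.09 in KD6 and -0.69 in KD4 against shScr. Whether the H1f1 level goes with Smarcd1 or with the selected population was not tested.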

How the results depend on the processing

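Of 640 limma values of linker histone changes under the alternatives, 609 kept their direction and side of the threshold, 16 turned sign, 13 lost a call and 2 gained it. The rise of H1f1 in KD4 was kept under all alternatives run. Quantile normalization turned H1f2 to -0.0099 for KD6 against KD4 and to 0.023 for transcripts in OE, and gave 3 calls in OE. Leaving out 1 library moved H1f2 over -0.103 to 0.0927 for KD6 against KD4, -0.0992 to 0.0856 in OE and -0.0992 to 0.0856 for its transcript in OE, and H1f3 over -0.0333 to 0.146 in KD6, -0.111 to 0.035 in OE and -0.111 to 0.035 for its transcript in OE. It moved the counts of calls over 0 to 1 in OE, 92 to 397 in KD, 641 to 1309 in KD4, 151 to 419 in KD6, 298 to 611 for KD6 against KD4, 263 to 716 for transcripts in KD and 11 to 76 for transcripts in the OE effect minus the KD effect. The mean of the hairpins gave 847 calls in KD. With 1 library left out the change of the H1f1 transcript in KD ranged over 0.50 to 0.80.

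Replicate numbers did not mark pairs: deviations of same-numbered libraries correlated at -0.149 to 0.258 (OE and EV), -0.328 to 0.0614 (hairpin lines) and -0.422 to -0.0275 (transcripts). With a replicate block the counts of calls were 114 in KD, 626 in KD4, 179 in KD6, 349 for KD6 against KD4, 181 for transcripts in KD and 1 for the OE effect minus the KD effect. H1f1 kept its call in KD4 (limma adjusted p = 0.0106) but not for KD6 against KD4 (limma adjusted p = 0.0829), nor did its transcript in KD. Causes were not tested.

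The depth is unknown, so the counting error of H1f1, near 10 CPM or below in most libraries, could not be separated from the spread between passages.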
